A study of Triticum aestivum with 24 samples.

Results

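On a scale with a floor on dim signals, the 200 probe sets described here were higher in resistant Molly sheaths 6 h after Hessian fly eggs hatched. On that scale they were back near the uninfested level at 24 h. They were chosen by their measured values from 61179 probe sets of a wheat array, a probe set being the group of probes that reads 1 transcript or several alike. Signals under 85 were raised to 85, log2 group means were formed, and a member needed a difference of 1 or more between infested Molly at 6 h and uninfested Molly, with a difference between -0.3 and 0.3 at 24 h. Of 2785 probe sets that met the 6 h limit, 203 met both limits (7.29%), 2574 were still more than 0.3 above uninfested Molly at 24 h and 8 were more than 0.3 below it. The 200 with the widest gap between 6 h and 24 h were kept. The 6 h and 24 h differences of infested from uninfested Molly therefore chose the members, and they are given below as a description with no test.

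The Hessian fly is a gall midge whose larvae feed at the base of wheat leaf sheaths and inject saliva. In a compatible interaction the larva survives and the tissue around it is turned into a food source, while in an incompatible interaction a plant resistance gene lets the seedling recognise the larva, which then dies. Early plant responses to attack commonly include fast and passing changes in transcripts for signalling, for oxidative bursts and for the cell wall, alongside changes that last.

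Total RNA came from the larval feeding site, a length of the second leaf sheath of wheat seedlings infested at the two-leaf stage. Molly has the resistance gene H13 and resists the larvae, whereas Newton is susceptible. Infested sheaths of both lines were taken 6, 12 and 24 h after hatching and sheaths without larvae at 12 h, giving 8 groups of 3 arrays. Uninfested sheaths were taken at 12 h alone, so at 6 h and 24 h infestation and the time of sampling cannot be told apart. No label says whether plants were pooled, and the uninfested replicates are only numbered, so p-values against them measure a spread between arrays that may be technical in part. The length of sheath at the feeding site was used whole, and a drop in a type of cell cannot be told from less RNA per cell.

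Values are the authors' signal per probe set on a linear scale. No 2 arrays held identical values, and median signal per array ran from 78.6 to 101. On 8 tag controls, probe sets with no wheat target, the median was 17.2 and the highest signal 85.02, so signals up to 85 are not told from background. Probe sets of green tissue, 32 in number and for the genes PsbO, PsbP, PRK and rbcL, were bright in every group, with summed signals between 88731 and 119269. The wheat 18S rRNA control was brighter on uninfested arrays (5269 ± 1424 in Molly and 6581 ± 1757 in Newton, mean ± SD, n = 3) than on infested ones (group means from 1534 to 2796). The summed signal of 18 histone probe sets was 244039 to 253335 in uninfested Molly, 89461 to 107270 at 6 h, 111441 to 156957 at 12 h and 138533 to 237322 at 24 h.

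Only 7 of the 200 members were paired with a gene by the supplied annotation, and 0 of these 7 had a symbol or synonym that says what is encoded. Members are therefore given by the array's probe set names, with the gene number where there is one. Names ending in _x_at, which by the maker's convention can also bind similar transcripts, made up 24.0% of members against 11.1% of all probe sets. Names starting with Ta. made up 65.0% of members against 51.4% of all, and the other members start with TaAffx. The names held 184 distinct cluster numbers. In 13 of them 2 or more probe sets were members, 29 members in all, and probe sets that share a cluster number may read the same or near-identical transcripts, so they are not independent of each other. The 9 keyword lists for transcription factors, defence, oxidative burst, hormone and lipid signals, cell wall, signalling, stress proteins, translation and transport matched 0 to 13 probe sets each by symbol or synonym, and 0 of these were members. No member had a symbol or synonym that a list could match, so that 0 was fixed in advance and says nothing about function.

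The pattern in Molly is the one the members were chosen for. On the floored log2 scale their difference from uninfested Molly had a median of 1.24 at 6 h, with quartiles of 1.11 and 1.45 and a highest value of 3.28, and at 24 h a median of 0.14. At 12 h, a time the selection did not use, though its comparison shares the uninfested arrays, the median was 1.13. The rise was thus still present at 12 h in most members: 123 were 1 or more above uninfested Molly, 66 were between 0.3 and 1 above it, 10 were within 0.3 of it and 1 was more than 0.3 below it. In 78 members the 12 h mean exceeded the 6 h mean. A difference of 1 or more at 12 h was found in 61.5% of members and in 3.91% of all probe sets.

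**Figure D1:**
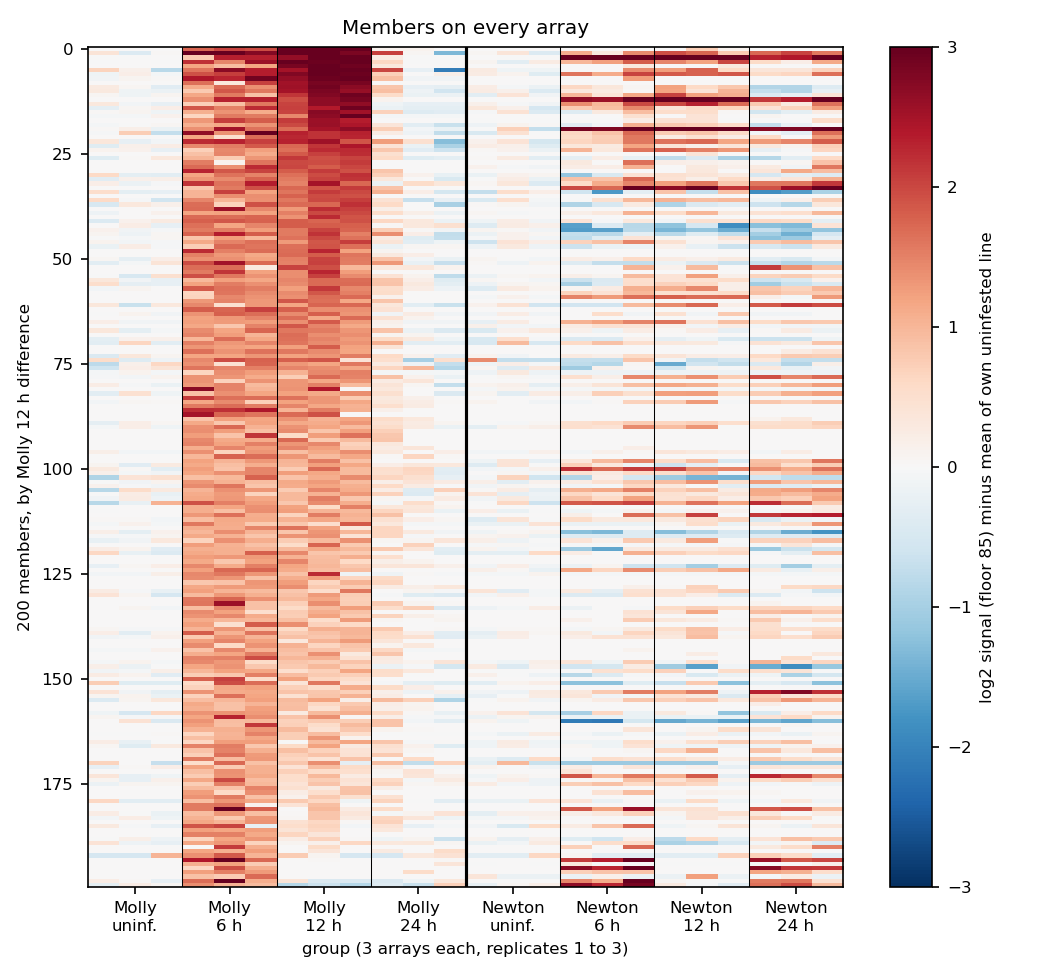
Each row is 1 of the 200 members, ordered by its difference at 12 h in Molly, and each column is 1 array; colour gives log2 signal, with signals under 85 raised to 85, minus the mean of the 3 uninfested arrays of the same line. The 6 h and 12 h Molly columns are red for most rows, the 24 h Molly columns are pale, and Newton shows a minority of red rows and a few blue ones.

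The 3 Molly arrays at 24 h were not alike. The median member was 0.34 above uninfested Molly on replicate 1 and 0.00 on replicates 2 and 3, and 7, 0 and 0 members were 1 or more above it. On replicate 1, 36 members were at or under 85, against 76 and 97 on the other two. The 18S rRNA signal on the same arrays was 1830, 2350 and 4208 and the summed histone signal 138533, 205422 and 237322, so replicate 3 was nearest to the uninfested arrays in its 18S rRNA and histone signals and in its number of members at or under 85. Their part in the return at 24 h was not tested. Probe sets that were 1 or more above uninfested Molly at both 6 h and 24 h, 1514 in number, also had their highest median on replicate 1 (2.01, against 1.59 and 1.34). Membership rested on these arrays: with the rule applied without Molly 24 h replicate 1, 386 probe sets met both limits and 99 of the 200 members were found again, and without replicate 3, 141 met them and 124 members were found again. Leaving out any other array the rule used kept 158 to 167 members.

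**Figure D2:**
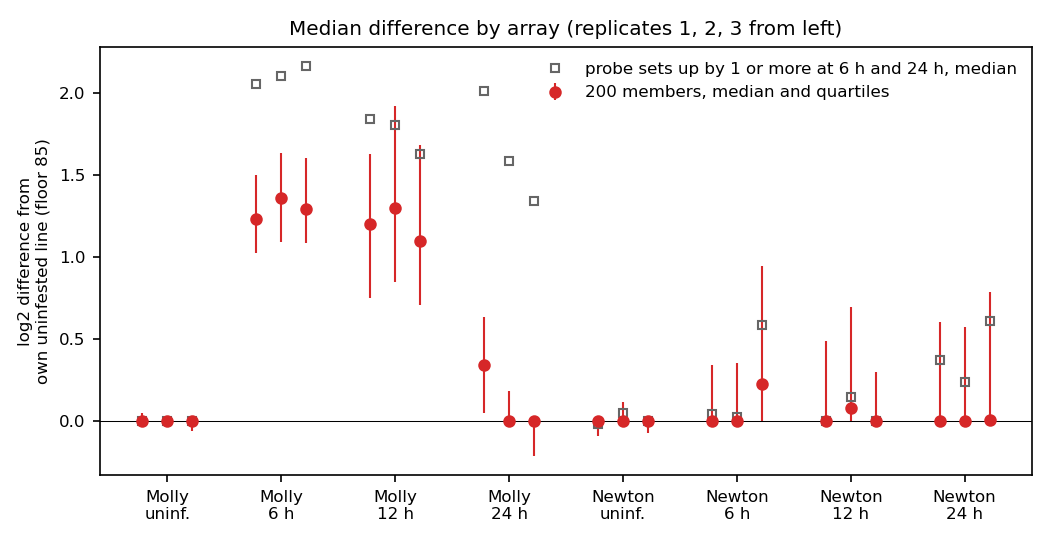
Points give the median over the 200 members of the log2 difference from the uninfested mean of the same line on each array, with bars from the lower to the upper quartile, and open squares give the median of the 1514 probe sets that were 1 or more above uninfested Molly at both 6 h and 24 h. Members stood between 1.10 and 1.36 on the Molly arrays of 6 h and 12 h and at 0.34, 0.00 and 0.00 on those of 24 h.

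The floor decided how complete the return looks. Of the 200 members, 105 had a geometric mean under 85 in uninfested Molly and 83 did so at 24 h, and 22 were at or under 85 on all 6 of those arrays. Without the floor, 104 members were within 0.3 of uninfested Molly at 24 h, 88 were more than 0.3 above it and 8 more than 0.3 below it. Of the 88, 64 were 1 or more above it. Among the 105 dim members the median difference at 24 h was 1.29 without the floor. Their uninfested means were in the range of the tag controls, so neither a full return nor the size of a remaining rise can be read from them. The other 95 members, at 85 or more in uninfested Molly, had a median of 0.16, and 88 of them were within 0.3. For these 95 the medians at 6 h and 12 h were 1.24 and 1.16, and 65 were still 1 or more above uninfested Molly at 12 h. With the rule applied without a floor, 22 of the 200 members were found again.

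**Figure D3:**
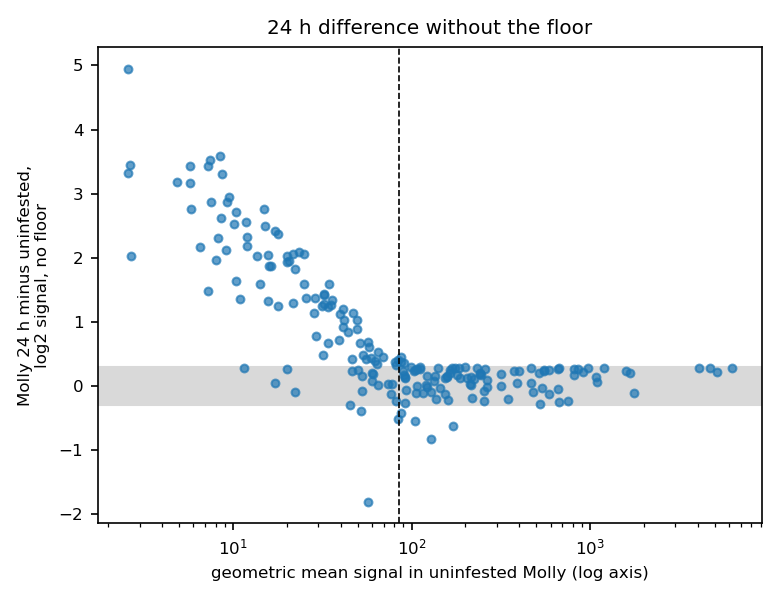
Each point is 1 member; the horizontal log axis is its geometric mean signal in uninfested Molly and the vertical axis its 24 h difference from uninfested Molly in log2 signal without the floor. The dashed line marks 85 and the grey band a difference within 0.3: 88 of 95 points to the right of the line lie in the band, while 85 of 105 points to its left lie above it.

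At the head of the members stood Ta.2631.3.S1_x_at, whose gap between 6 h and 24 h was 3.03. Its signals were 279.8, 162 and 219 on the uninfested Molly arrays, 1959, 3209.6 and 1458 at 6 h, 2221, 3198 and 1518 at 12 h and 884, 225 and 66.1 at 24 h. The 6 h and 12 h arrays lay above all others of Molly, and 24 h replicate 1 lay above the uninfested arrays. The 3 probe sets on the array under cluster number Ta.2631 were all members, with 6 h differences of 1.24, 2.20 and 3.28 and 24 h differences of -0.09, 0.15 and 0.26.

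Ta.2690.1.S1_at, paired with gene LOC606323 and 4th in rank, was the brightest of the leading members. Uninfested Molly read 2775, 1939 and 1004, the 6 h arrays 5312, 11437 and 8969, the 12 h arrays 9955, 17861 and 14357 and the 24 h arrays 7088, 1479 and 417. Its 24 h mean near the uninfested level came from values on either side of it, 1 array being as high as at 6 h and another below every uninfested array. In Newton it had a log2 difference of 0.48 at 6 h, 1.21 at 12 h and 0.47 at 24 h, with limma adjusted p-values of 0.68, 0.21 and 0.63.

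Ta.20509.1.S1_x_at, 2nd in rank, read 156, 264 and 97.6 in uninfested Molly, 1001, 403 and 1472 at 6 h, 787, 715 and 793 at 12 h and 187, 142 and 94.9 at 24 h. Its 24 h and uninfested arrays overlapped, and both groups lay below those of 6 h and 12 h. At the other end, the last 2 in rank were TaAffx.26497.1.S1_at, with a gap of 0.75 and differences of 1.04 and 0.29, and TaAffx.116735.1.S1_at, with differences of 1.01 and 0.26. Just outside were TaAffx.5390.1.S1_at at 1.01 and 0.26 and Ta.5484.1.A1_x_at at 1.00 and 0.25, while Ta.22312.1.S1_at missed the 24 h limit at 0.3001.

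Cluster number Ta.5713 had 4 members among its 5 probe sets, with 6 h differences from 1.10 to 1.67, while the 5th had 0.00 in every comparison with the uninfested lines on the floored scale. For Ta.8582, 2 of 4 probe sets were members, and another with a 6 h difference of 1.87 missed the 24 h limit at 0.40. For TaAffx.88122, 2 of 4 were members and another stayed high, at 1.77 at 6 h and 1.36 at 24 h. Probe sets under 1 number thus fell on both sides of the rule.

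Whether the susceptible line shared these changes was asked by contrasting groups that the selection did not use. Log2 signal was fitted over all 24 arrays with limma, so the Molly arrays behind the selection entered the variance and the filter. Adjustment by Benjamini-Hochberg ran over the 36707 probe sets that passed a filter on mean signal, and an adjusted p under 0.05 was called. Of the 200 members 168 passed the filter, which the bright Molly arrays helped some to do, and 32 did not. Counts without the filter, where all 200 were tested, are given beside the others.

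At each time in Newton, taken alone, most members were not called, while 85 of the 168 tested were called at 1 or more times (50.6%, against 38.1% of all tested probe sets). At 6 h, 32 rose (19.0%, against 8.64% of all tested probe sets) and 4 fell (2.38%, against 6.53%). At 12 h, where infested and uninfested sheaths match in time, 35 rose (20.8%, against 10.8%) and 11 fell (6.55%, against 7.76%). At 24 h, 59 rose (35.1%, against 16.6%) and 11 fell (6.55%, against 13.8%). The summed histone signal was 210403 to 236784 on the uninfested Newton arrays, 129248 to 195023 at 6 h, 114507 to 228630 at 12 h and 95376 to 119311 at 24 h, and its part in these counts was not tested. Without a floor, the median log2 difference of the tested members was 0.38, 0.46 and 0.53 at the 3 times, and that of all tested probe sets 0.06, 0.07 and 0.05. With signals under 85 raised to 85, the median over all 200 members was 0.06, 0.08 and 0.04, 103 of them having a geometric mean under 85 in uninfested Newton. Without the filter, 32, 28 and 53 of 200 rose (16%, 14% and 26.5%, against 4.37%, 5.48% and 9.4% of all probe sets) and 4, 8 and 10 fell (2.0%, 4.0% and 5.0%, against 3.62%, 4.35% and 7.89%). The 3 comparisons share the uninfested Newton arrays. In all, 15 tested members rose at every time in Newton (8.93%, against 4.36% of all tested probe sets), 22 at 24 h alone (13.1%, against 7.31%) and 98 at no time (58.3%, against 78.4%), and 83 neither rose nor fell at any time (49.4%, against 61.9%).

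For comparison, of the 1486 tested probe sets that were 1 or more above uninfested Molly at both 6 h and 24 h, 27.8% rose in Newton at 6 h, 15.7% at 12 h and 42.1% at 24 h. Single arrays moved several of the members' counts. For fits without an array, here and below, the shares of all tested probe sets are not given. A change in the members is thus not told from a change over the whole table. The 35 rises at 12 h became 22 without uninfested Newton replicate 3, 23 without Newton 12 h replicate 1 and 21 without replicate 2. The 11 falls at 12 h became 7, 6 and 6 without uninfested replicates 1, 2 and 3 and 4 and 5 without Newton 12 h replicates 1 and 2. The 11 falls at 24 h became 7 without uninfested replicate 2 or Newton 24 h replicate 2 and 17 without Newton 24 h replicate 3, and the 4 falls at 6 h became 2 without Newton 6 h replicate 1 or 2. With the 18S rRNA signal entered in the fit, 16, 16 and 26 members rose at the 3 times (9.52%, 9.52% and 15.5%, against 2.77%, 5.49% and 8.57% of all tested probe sets). The median member was 0.23 above uninfested Newton on Newton 6 h replicate 3 and 0.00 on replicates 1 and 2, and the summed histone signal on that array was 129248, against 181475 and 195023; its part in the 6 h counts was not tested.

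**Figure D4:**
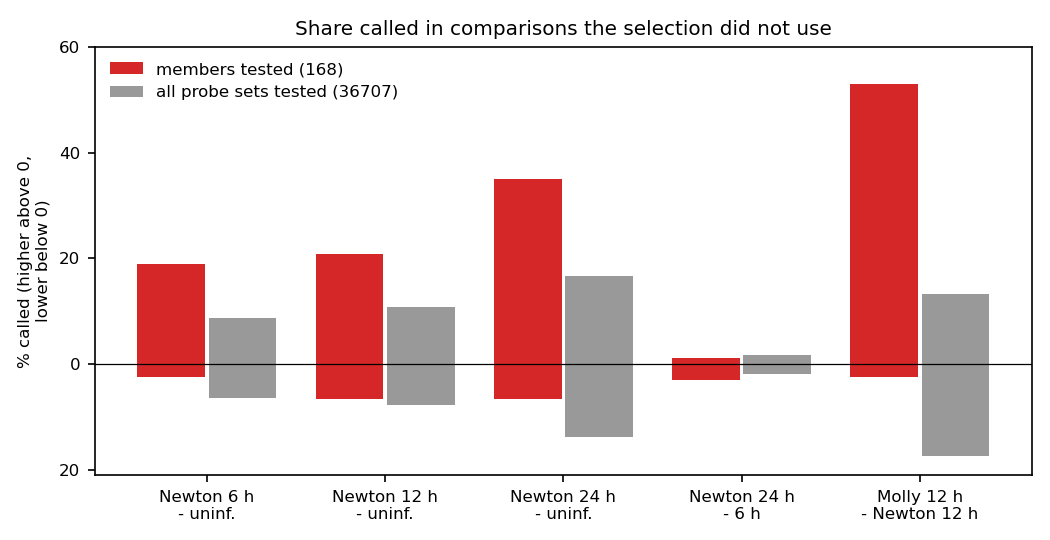
Bars give the percent of tested probe sets called higher (above 0) or lower (below 0) in 5 comparisons between groups the selection did not use, although all 24 arrays entered the filter and the variance, for the 168 tested members and for all 36707 tested probe sets. Members stood at 53.0% higher in infested Molly than in infested Newton at 12 h, against 13.3% of all.

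Among the members with the largest rises in Newton were both members of cluster number Ta.27763 and Ta.13400.2.A1_at. Ta.27763.1.S1_at read 86.8, 71.3 and 51.4 in uninfested Newton, 1028, 1048 and 2029 at 6 h, 2703, 2118 and 2607 at 12 h and 424, 455 and 1313 at 24 h. Infested arrays all lay above the uninfested ones, which at 6 h and 12 h was a condition for being named. The rise was at least 15.3-fold at 6 h, at least 29.0-fold at 12 h and at least 7.45-fold at 24 h, measured from 85 (limma adjusted p = 4.7e-06, 8.9e-07 and 6.3e-05). In Molly the same probe set read 54.9, 30.6 and 86.8 without larvae, 149, 428 and 429 at 6 h, 530.3, 901 and 972 at 12 h and 101, 36.3 and 33.9 at 24 h. Ta.27763.2.S1_a_at also rose in Newton, at least 7.85-fold at 6 h, 20.1-fold at 12 h and 6.03-fold at 24 h (adjusted p = 2.5e-06, 1.5e-07 and 5.2e-06).

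Ta.13400.2.A1_at read 14.0, 43.6 and 20.6 in uninfested Newton, 337, 281 and 1123 at 6 h, 551, 1112 and 374 at 12 h and 319.9, 502 and 858 at 24 h. Its rises were at least 5.57-fold, 7.20-fold and 6.08-fold (adjusted p = 1.3e-05, 7.4e-06 and 5.5e-06). In Molly it read 151, 251 and 319 at 6 h and 154, 84.1 and 37.7 at 24 h, from 17.8 to 29.2 without larvae. Ta.412.1.S1_at was named at 24 h, where Newton read 373, 416 and 432 against 14.8, 39.7 and 13.0 without larvae, a rise of at least 4.78-fold (adjusted p = 3.5e-05). At 24 h these 4 members read 319.9 or more on every infested Newton array and 155 or less on every infested Molly array. The rule had kept members low in Molly at 24 h, and these 4 were named for their rises in Newton. The gap between the lines at 24 h therefore follows in part from the choice.

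Other members fell in Newton, while the rule required every member to be higher in Molly at 6 h. Opposite directions in the lines at 6 h were therefore in part a result of the selection. At each time the share of tested members that fell in Newton was below that of all tested probe sets. Ta.27951.1.A1_x_at read 605, 517 and 543 in uninfested Molly, 1622, 1606 and 1312 at 6 h, 1636, 2263 and 1861 at 12 h and 928, 571 and 515 at 24 h. In Newton it read 849.9, 820.2 and 740.0 without larvae, 251, 258 and 456 at 6 h, 309, 352 and 287 at 12 h and 499, 377 and 354 at 24 h. All 9 infested Newton arrays lay below the 3 uninfested ones, which at 6 h and 12 h was a condition for being named. Its log2 difference was -1.38 (SE 0.22) at 6 h, -1.35 at 12 h and -0.98 at 24 h (adjusted p = 0.00014, 0.00018 and 0.0016).

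Ta.17325.1.S1_at fell in Newton from 408, 344 and 382 to 88.3, 83.6 and 262 at 6 h, 129.6, 142 and 125 at 12 h and 145, 128.1 and 155 at 24 h (log2 difference -1.60, -1.51 and -1.41, adjusted p = 0.0022, 0.0031 and 0.0029). In Molly its group means were 162 ± 47.9 without larvae, 338 ± 54.2 at 6 h and 263 ± 7.75 at 12 h (n = 3). Ta.731.1.S1_at fell in Newton from 855 ± 69.2 to 449.7 ± 178 at 6 h and 336 ± 111 at 24 h (n = 3, log2 difference -0.99 and -1.40, adjusted p = 0.013 and 0.00039), and its 6 h call was lost without Newton 6 h replicate 1 or 2 (adjusted p = 0.062 and 0.066). Its Molly means were 986 ± 167, 2169 ± 347 and 2038 ± 364 without larvae, at 6 h and at 12 h.

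Ta.1338.1.S1_at fell in Newton at 24 h, from 572, 356 and 514 to 169, 129 and 214 (log2 difference -1.50, adjusted p = 0.00065), while Molly read 1525, 1698 and 1163 at 6 h and 589, 656 and 462 at 24 h. Ta.10516.1.A1_at fell at 24 h by 1.50 on the log2 scale (adjusted p = 0.018), a call lost without Newton 24 h replicate 1 or 2 (adjusted p = 0.071 and 0.061) and without uninfested Newton replicate 2 or 3 (0.087 and 0.058). Ta.23032.2.S1_x_at fell at 12 h by 1.19 (adjusted p = 0.032). That call was lost without uninfested Newton replicate 2 or 3 (0.11 and 0.09), without Newton 12 h replicate 1 or 3 (0.075 and 0.14), with only the 2 groups compared (0.055) and when 18S rRNA entered the fit (-0.33, adjusted p = 0.71).

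Infested Molly and infested Newton at 12 h, neither of which the selection used, were compared directly. Of 168 tested members, 89 were higher in Molly (53.0%, against 13.3% of all tested probe sets) and 4 were lower (2.38%, against 17.5%). Their median log2 difference was 1.10, and that of all tested probe sets -0.09. Of the 89 higher in Molly, 67 rose at no time in Newton, as did 78.4% of all tested probe sets. The share among all probe sets higher in Molly is not given, so the count does not set the members apart. Without the filter 113 of 200 were higher (56.5%, against 8.26% of all probe sets) and 5 lower (2.5%, against 9.55%), and without Newton 12 h replicate 3 the 4 lower members became 7. The share higher in Molly was 78.7% among probe sets 1 or more above uninfested Molly at both 6 h and 24 h. The comparison also holds lasting differences between the lines. On the floored scale uninfested Molly was at least 1 below uninfested Newton in 8 members and at least 1 above it in 0. The shares over all probe sets are not given, and uninfested Molly arrays took part in the selection.

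Ta.353.1.S1_at read 488, 607 and 617 in infested Molly at 12 h and 16.8, 51.0 and 41.4 in infested Newton, at least 6.68-fold higher (adjusted p = 0.00021). At 24 h Molly read 23.8, 31.2 and 18.6, and at 6 h 268, 105 and 355. Ta.13876.1.S1_at read 571, 706 and 743 against 61.3, 74.1 and 61.4, at least 7.87-fold higher (adjusted p = 0.0012), and Ta.21245.1.S1_at 611, 879 and 637 against 67.3, 60.8 and 104, at least 8.23-fold higher (adjusted p = 0.011). For these 3 members every Molly array exceeded every Newton array, which was a condition for being named. No Newton comparison called them. Ta.27951.1.A1_x_at, which fell in Newton, was 6.05-fold higher in Molly (adjusted p = 3.8e-08) and Ta.731.1.S1_at 4.36-fold (adjusted p = 4e-06). For Ta.17325.1.S1_at the log2 difference was 1.00 (adjusted p = 0.026), and the call was lost without any 1 of the 3 Molly 12 h arrays (adjusted p = 0.054 to 0.07), without Newton 12 h replicate 1 or 3 (0.062 and 0.068), and when 18S rRNA entered the fit (0.065).

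Lower in Molly at 12 h were TaAffx.499.1.A1_at and both members of Ta.27763. TaAffx.499.1.A1_at read 315, 551 and 627 in Molly and 2617, 2602 and 2117 in Newton, a log2 difference of -2.35 (SE 0.42, adjusted p = 0.00021). It was high in infested Newton at every time, from 1301 to 3576, against 119.8 to 324 without larvae. Ta.27763.2.S1_a_at differed by -1.84 (adjusted p = 0.003) and Ta.27763.1.S1_at by -1.67 (adjusted p = 0.014), the latter not called without Molly 12 h replicate 1 (-1.40, adjusted p = 0.07).

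**Figure D5:**
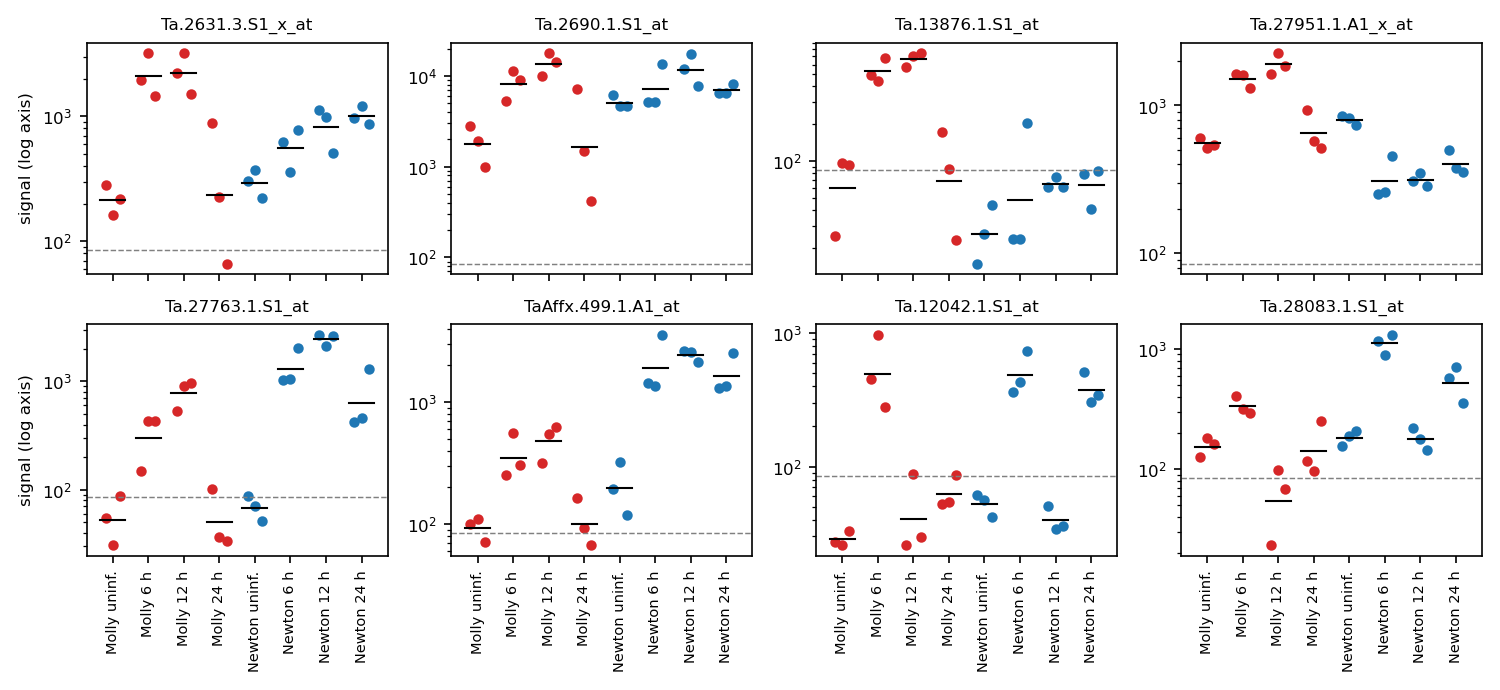
Signal of 8 members on every array, on a log axis, with 3 points per group in order of replicate number, black lines at geometric means, Molly in red and Newton in blue, and a dashed line at 85. Ta.13876.1.S1_at is high in infested Molly at 6 h and 12 h. Ta.27951.1.A1_x_at is higher in infested Molly at those times, 6 h being a time the rule used, and lower in infested Newton. Ta.27763.1.S1_at and TaAffx.499.1.A1_at are highest in infested Newton, and Ta.12042.1.S1_at and Ta.28083.1.S1_at are high at 6 h and in Newton at 24 h but not at 12 h.

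By 12 h in Molly, 10 members were within 0.3 of the uninfested level and 1, Ta.28083.1.S1_at, was below it, by a log2 difference of -0.79 on the floored scale. On that scale 4 of these 11 were 1 or more above uninfested Newton at 6 h and less than 0.3 above it at 12 h. Those 4, singled out after their values were seen, were Ta.12042.1.S1_at, Ta.9140.1.A1_at, Ta.28083.1.S1_at and Ta.22973.1.S1_x_at. A floored difference of 1 or more in Newton at 6 h was found in 12.5% of members and in 0.945% of all probe sets. The share of all probe sets that also met the 12 h condition is not given. Of the 11, 9 were tested; 4 rose in Newton at 6 h, 0 at 12 h and 5 at 24 h. The shares that rose among all tested probe sets were 8.64%, 10.8% and 16.6%. With only 9 tested, the 0 at 12 h is not told from that share. Ta.22973.1.S1_x_at was not tested, so the 4 that rose at 6 h were not the same 4 as those just named.

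Ta.12042.1.S1_at, 3rd in rank, read 449, 972 and 281 in Molly at 6 h, 25.9, 87.3 and 29.7 at 12 h and 52.4, 54.4 and 86.9 at 24 h. In Newton it read 60.8, 56.0 and 42.0 without larvae, 361, 433 and 730.3 at 6 h, 50.9, 34.2 and 36.1 at 12 h and 509, 307 and 342 at 24 h. It rose in Newton at least 5.70-fold at 6 h and 4.43-fold at 24 h (adjusted p = 2.4e-05 and 5e-05), and at 12 h, the matched time, all Newton arrays with and without larvae were under 85. The geometric means of both infested lines were under 85 at 12 h, so they could not be compared.

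Ta.28083.1.S1_at, paired with gene LOC543404, read 1174, 887 and 1314 in Newton at 6 h, 222, 179.7 and 146 at 12 h and 575, 709.8 and 356 at 24 h, against 156, 189.9 and 207 without larvae. It rose 6.07-fold at 6 h and 2.87-fold at 24 h (adjusted p = 0.00011 and 0.0063), with a log2 difference of -0.02 at 12 h (SE 0.40, adjusted p = 0.98). In Molly it read 406, 319 and 296 at 6 h, 23.2, 98.4 and 69.1 at 12 h and 126, 181 and 161 without larvae, and at 12 h it was at least 2.12-fold lower in Molly than in Newton (adjusted p = 0.0022), where the mean of Molly was no higher than the brightest tag control.

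Ta.9140.1.A1_at rose at least 3.64-fold in Newton at 6 h, to 238, 184 and 676, and at least 2.32-fold at 24 h (adjusted p = 0.00063 and 0.0019), with 89.2, 81.9 and 83.0 at 12 h. Without the floor its 12 h log2 difference was 1.55 (adjusted p = 0.088), from uninfested signals of 86.4, 11.3 and 24.5. Its 24 h call was lost with signals under 85 raised to 85 (adjusted p = 0.068), and both calls when 18S rRNA entered the fit (0.085 and 0.12). Ta.27661.2.S1_at, whose uninfested signals were under 85 in both lines, rose in Newton at 6 h to 139.7, 153 and 154 and at 24 h to 194, 179 and 122, at least 1.75-fold and 1.90-fold (adjusted p = 0.00013 and 3.7e-05). At 12 h it read 54.1, 81.5 and 44.3 there. Ta.22973.1.S1_x_at, paired with gene LOC543421, did not pass the filter; it read 554, 417 and 728 in Newton at 6 h, 37.2, 31.3 and 11.4 at 12 h and 578, 373 and 373 at 24 h, and in Molly 131, 326 and 179.9 at 6 h and under 20 on every other array. In these 5 members both lines were high at 6 h and 0 of the 4 tested were called at 12 h in Newton, while at 24 h every Newton array lay above the 12 h Newton arrays. Since sheaths without larvae were sampled at 12 h alone, infestation and time of sampling cannot be told apart for them.

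Of the other members paired with a gene, 1 was bright and 3 were dim. Ta.7314.1.S1_at (LOC780670), rank 198, read 1282, 943 and 1438 in uninfested Molly, 2633, 2259.8 and 2543 at 6 h, 2418, 2838 and 2673 at 12 h and 1382, 1511 and 1489 at 24 h, the 24 h arrays lying close together. It was 3.73-fold higher in Molly than in Newton at 12 h (adjusted p = 1.1e-06), and rose in Newton at 24 h by 0.74 on the log2 scale (adjusted p = 0.0099), a call lost without uninfested Newton replicate 1 (0.54, adjusted p = 0.076) and when 18S rRNA entered the fit (0.51, adjusted p = 0.35). Ta.129.1.S1_at (LOC543263), Ta.23679.1.S1_at (LOC100125736) and Ta.55.1.S1_x_at (LOC100037521) had means of 199.4 ± 154, 190.1 ± 45.1 and 186 ± 31.1 in Molly at 6 h (n = 3). All 3 were under 85 in both uninfested lines, so the sizes of their differences are not given.

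Whether Newton had a rise that faded between 6 h and 24 h was asked by comparing its infested arrays at those times. Of 168 tested members, 2 were higher at 24 h (1.19%, against 1.77% of all tested probe sets) and 5 were lower (2.98%, against 1.9%), with a median log2 difference of 0.03 in members and -0.01 in all. These shares are near those of all probe sets. The counts ranged from 0 to 9 higher and from 0 to 8 lower when single arrays were left out: they were 0 and 0 without Newton 6 h replicate 1 or Newton 24 h replicate 2, 0 and 1 without Newton 6 h replicate 2, 9 and 3 without Newton 6 h replicate 3, 1 and 1 without Newton 24 h replicate 1, and 1 and 8 without Newton 24 h replicate 3. With only the 2 groups compared, limma called 0 members in either direction, and over all groups 20 members were higher and 22 lower at an unadjusted p under 0.05. The share of all tested probe sets under that unadjusted limit is not given, so these 2 counts do not set the members apart.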

How the data were processed

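Total RNA from wheat leaf sheaths was hybridised to 24 Affymetrix arrays. The authors deposited a linear intensity for each probe set, computed with MAS5 according to the submitters' processing notes. For its version and options, the sources used here give nothing. Trimmed means ran from 499.97 to 499.98, and this scaling was kept. The number of arrays limits the precision. The 111 control probe sets were set aside. Members were chosen by the rule stated at the opening of the results. For tests, probe sets in the lowest 40% by mean log2 signal were dropped (limit 44.8), and the model in limma 3.58.1 (R 4.3.3) had a mean for each group over all 24 arrays, an intensity trend in the variance prior and 16 residual degrees of freedom. All tests were two-sided, p-values were adjusted by Benjamini-Hochberg for each comparison on its own, and "rose" and "fell" are used of results past 0.05. The fit was tested on simulated data. Where a group's geometric mean was under 85, a fold is given as at least the brighter geometric mean over 85. Members, lists and tests were chosen with earlier results of these data known. Named by rule were ranks 1 to 4, those at the limits, and in each tested comparison up to 3 called members in each direction, among those with no overlap between groups and a brighter group above the median signal of 307.5. The 7 members paired with a gene, those of shared cluster numbers, those back near the uninfested level at 12 h in Molly, and the further comparisons of the 3 members named for their fall at 6 h were chosen after their values were seen. The arrays were not treated as paired by replicate number. In 0 of 5 comparisons did all 3 same-numbered pairs correlate above 0.1. In infested Newton at 24 h against 6 h, however, each array correlated best with its own number (r = 0.118, 0.062 and 0.176), so pairing is not excluded there. Alternatives were another floor, quantile normalization, centring, no filter, no trend, only 2 groups, a replicate block, 18S rRNA signal as a covariate and leaving out each array. Sequences of the probe sets were not used here.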

Additional observations from a re-analysis of the deposited data

Results flagged for a closer look

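The Newton response of some members differed between 24 h and 6 h by a test of the difference itself, the comparison of infested Newton arrays at the 2 times. It called 2 members higher and 5 lower at 24 h among 168 tested, shares near those of all tested probe sets. By the naming rule, Ta.6420.2.S1_a_at was higher at 24 h by 1.54 on the log2 scale (limma adjusted p = 0.015), at 871, 1218 and 805 against 219, 307 and 511 at 6 h. The log2 difference was -1.22 for Ta.1338.1.S1_at (adjusted p = 0.028), -1.05 for Ta.1229.1.S1_x_at (adjusted p = 0.027) and -0.64 for Ta.25143.1.S1_s_at (adjusted p = 0.031). Each of these 4 calls was lost on leaving out Newton 6 h replicate 1 or 2 or Newton 24 h replicate 2 and with only the 2 groups compared, and the 3 falls also without Newton 24 h replicate 1 and with no intensity trend. Ta.1338.1.S1_at was also not called without Newton 6 h replicate 3. Ta.1229.1.S1_x_at had been 0.87 above uninfested Newton at 12 h and 0.71 below it at 24 h.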

How the results depend on the processing

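Of the 200 members, 132 were found again with a floor of 64, 106 with a floor of 2 times that, 22 with no floor, 146 after quantile normalization and 120 with arrays centred on their median; leaving out single arrays kept 99 to 167. With 18S rRNA signal as a covariate the members that rose in Newton were 16 at 6 h, 16 at 12 h and 26 at 24 h, 7 fell at 12 h and 1 was higher at 24 h than at 6 h. With signals under 85 raised to 85, 6 fell at 24 h and 4 were higher at 24 h than at 6 h. With only the 2 groups compared, 6 fell at 12 h and 0 differed in either direction between 24 h and 6 h. Between those times 1 member was higher with centring, with no filter, with no intensity trend or with the replicate block, and 2 were lower with no trend. The replicate block moved no other count by more than 1.5 times; in infested Newton at 24 h against 6 h every array correlated best with its own number, a hint from the data and not the design. Leaving out single arrays gave 26 to 35 rises and 2 to 4 falls in Newton at 6 h, 21 to 44 and 4 to 10 at 12 h, 43 to 53 and 7 to 17 at 24 h, 0 to 9 and 0 to 8 between 24 h and 6 h, and 72 to 95 and 3 to 7 in Molly against Newton at 12 h. Neither for these ranges nor for the counts of the other alternative fits are shares of all tested probe sets from the same fits given here. From these counts alone, a change in the members is not told from a change over the whole table. Centring moved the share of calls over all tested probe sets that were rises from 56.9% to 43.2% in Newton at 6 h and from 43.3% to 33.0% in Molly against Newton at 12 h. Of 52 results for single members, 33 kept their call under every alternative in which the member was tested, and 0 reversed. Signals up to 85 limit the dim members, and 3 arrays per group limit the rest.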
